A study of Mus musculus with 2 samples.

Results

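Haem synthesis was examined through 9 genes, namely the enzyme genes Alas1, Alas2, Alad, Uros, Urod, Cpox, Ppox and Fech, and Blvrb, whose product acts downstream of haem. They were taken as the probe sets annotated with that 1 symbol alone, out of 19935 genes named in the same way. All 9 were measured, each by a single probe set, so the rule of taking the probe set with the highest mean of both arrays had no effect on them. The genes were chosen by their place in the pathway with the difference between these arrays already known, so their values are given as a description, with no test. Blvrb encodes a reductase of haem breakdown products and flavins and is not a step of synthesis.

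The study put RNA of Ba/F3 cells on 2 arrays. Ba/F3 is a mouse pro-B cell line that needs interleukin-3 (IL-3) to live unless an oncogene such as BCR-ABL, the fusion kinase of chronic myeloid leukaemia, replaces it. Cells of both groups carried BCR-ABL under constitutive expression, were kept in RPMI with 10% serum, and received the ABL kinase inhibitor imatinib at 5 µM for 6 h. They differed in IL-3: 1 array, titled Live-IL3, was from cells given IL-3, and 1 array, titled Live-NoIL-3, was from cells without it. The submitters describe the former as resistant to imatinib and the latter as sensitive, and both titles call the cells live. The labels name no clone, no promoter for BCR-ABL and no untreated cells. The description field of the Live-IL3 array says that IL-3 was absent, against its title and source name. The groups follow the titles, and if those were exchanged every difference below would change sign.

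Haem is an iron-bearing porphyrin that cells make in mitochondria and cytosol in turn. Synthesis begins in the mitochondrion with 5-aminolaevulinate, passes through porphobilinogen and ring-shaped porphyrinogens in the cytosol, and returns to the mitochondrion, where ferrochelatase adds iron. The opening step sets the rate in most cells and is held back by haem itself, while red cell precursors use a separate enzyme for it. Outside the red cell lineage haem serves mainly cytochromes, catalase, peroxidases and oxidases, and it is also a signal that transcription factors such as BACH1 and kinases such as HRI sense.

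The genes of the pathway did not differ in 1 direction. Cpox was 2.20-fold higher with IL-3, Alas1 was 1.42-fold lower and Alad was 1.40-fold lower, while Uros was nearly equal on the arrays. Of the 9 genes, 5 had a difference above 0 and 4 below 0, while 59.8% of all 19935 genes lay above 0. The median of the 9 was 0.02 on the log2 scale, against 0.04 over all genes. On the deposited scale only Cpox passed 1.5-fold, and it also passed 2-fold; with a loess trend (of the difference against the mean of both arrays) subtracted, Cpox was below 2-fold and Alas1 passed 1.5-fold. In the background, the share of all genes at least 1.5-fold higher in the presence of IL-3 was 3.52%, and the share at least 1.5-fold lower was 2.71%. At 2-fold these shares were 0.441% and 0.657%. Since the genes were chosen with these differences known, nothing is read from their count against these shares. There was 1 array per group, which allows neither a test nor a standard error, and precision is limited by having a single pair of arrays. The only measure of error at hand was the spread of the difference between probe sets of the same gene, a pooled SD of 0.14 over 998 genes with several probe sets. It holds no difference between cultures, can hold differences between isoforms, and is not an error of the comparison between conditions. Among the highest 25% of genes by mean value, where Alas1, Urod, Cpox and Fech lie, it was 0.17. The differences of 5 of the 9 genes (Alas1, Alad, Urod, Cpox and Ppox) were larger than this SD, and those of the other 4 (Alas2, Uros, Fech and Blvrb) were within it.

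**Figure D1:**
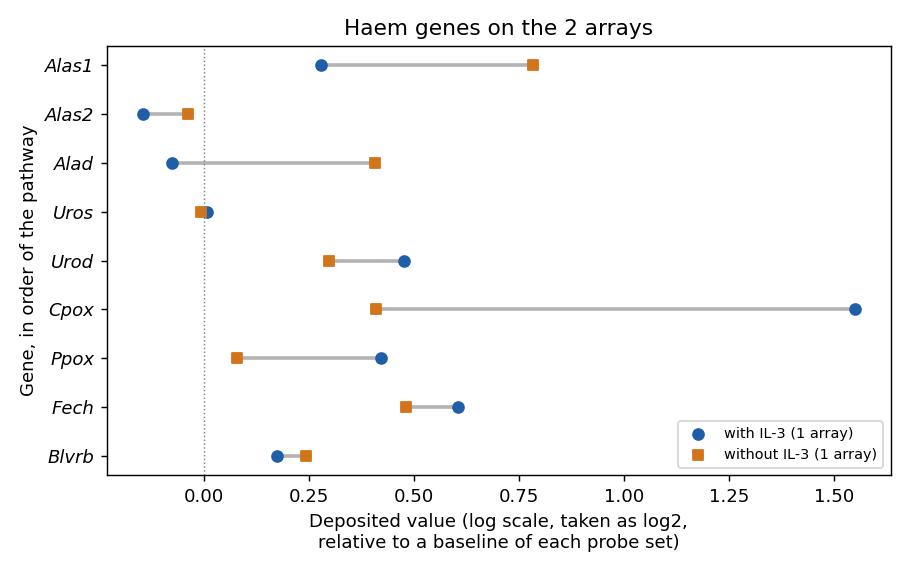
Deposited value (horizontal axis, log scale taken as log2, relative to an unstated baseline of each probe set) of the 9 haem genes, from the start of the pathway at the top to Blvrb at the bottom. Circles are the array with IL-3 and squares the array without IL-3, joined by a line whose length is the difference. Cpox has the longest line (1.55 with IL-3, 0.41 without), and Alas1 and Alad have their circles to the left of their squares.

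Each value is the authors' processed number for a probe set, on a log scale taken as log2 and relative to a baseline of that probe set, so that it carries no expression level. A value of 1 gene can therefore not be set against that of another, and only differences between the arrays are compared. The genes of the opening steps were lower with IL-3. Alas1 encodes the 5-aminolaevulinate synthase of most tissues, which joins glycine and succinyl-CoA. Its value was 0.28 with IL-3 and 0.78 without, a difference of -0.50. Differences as far below 0 were found in 3.61% of all genes, and in 8.53% of the 4984 genes that make up the highest 25% by mean deposited value, where Alas1 lies. Alas2, the X-linked erythroid form of the same enzyme, was at -0.15 with IL-3 and -0.04 without, a difference of -0.11, within the spread between probe sets. Alad encodes the cytosolic enzyme that joins a pair of aminolaevulinate molecules into porphobilinogen. Its value was -0.08 with IL-3 and 0.41 without, a difference of -0.48, and 4.01% of all genes lay as far below 0. The differences of Alas1 and Alad were thus close to each other, 0.02 apart, which is less than the spread between probe sets.

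The genes of the middle steps differed little. Uros encodes the synthase that closes the ring to uroporphyrinogen. Its values were 0.01 with IL-3 and -0.01 without, equal and opposite to within 1e-05, and the difference was 0.02. Such mirrored pairs made up 6.11% of all probe sets, and for them the baseline lies midway between the arrays. Urod encodes the decarboxylase that turns uroporphyrinogen into coproporphyrinogen. It was at 0.48 with IL-3 and 0.30 without, a difference of 0.18. Among the highest 25% of genes by mean value, to which Urod belongs, 43.1% had a difference at least as high.

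Of the genes of the last 3 steps, which lie in the mitochondrion, Cpox passed 1.5-fold, while Ppox and Fech were higher by less. Cpox encodes coproporphyrinogen oxidase of the intermembrane space. Its value was 1.55 with IL-3 and 0.41 without, a difference of 1.14, and it ranked 41 from the top among all genes. The gap between Cpox and the next gene of the pathway was 0.80. Differences as high were found in 0.206% of all genes and in 0.803% of the highest 25% by mean value, where Cpox lies. A high value on 1 array itself raises the mean that places a gene there. Ppox encodes the oxidase that makes protoporphyrin. It was at 0.42 with IL-3 and 0.08 without, a difference of 0.34 (1.27-fold), and 9.70% of all genes were as high. Fech encodes ferrochelatase, which inserts ferrous iron into protoporphyrin. It was at 0.60 with IL-3 and 0.48 without, a difference of 0.12, within the spread between probe sets. After quantile normalization Fech differed by 0.06 and with the loess trend subtracted by 0.02. Blvrb, the reductase outside synthesis, was at 0.18 with IL-3 and 0.24 without, a difference of -0.07.

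**Figure D2:**
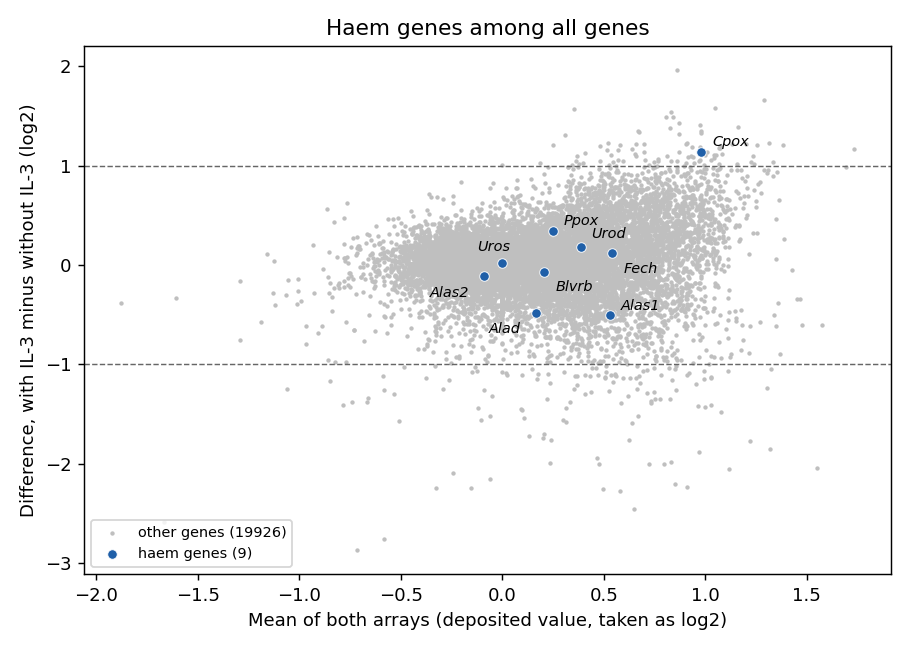
Difference between the arrays (vertical axis, with IL-3 minus without IL-3, log2) against the mean of both arrays (horizontal axis, deposited value taken as log2) for all 19935 genes, with the 9 haem genes as named blue points. Dashed lines mark 2-fold. Cpox lies above the upper line at the right, where the scatter is wider, and the other 8 haem genes lie between the lines.

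The mitochondrial enzymes, which are the products of Alas1, Alas2, Cpox, Ppox and Fech, ranged in their genes from -0.50 to 1.14 with 3 above 0. The genes of the cytosolic enzymes, Alad, Uros and Urod, ranged from -0.48 to 0.18 with 2 above 0. Of all genes, 59.8% lay above 0. Place in the cell thus did not sort the genes by direction, whereas the order of the steps ran with it: Alas1, Alas2 and Alad were below 0, and Cpox, Ppox and Fech above 0, with Alas2 and Fech inside the spread between probe sets. This grouping was made after the values were seen. Without Cpox the median of the other 8 genes was -0.03.

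The signs of all 9 differences were kept when the arrays were centred on their medians, quantile normalized, or freed of a loess trend of the difference against the mean, but the sizes for Cpox and Fech depended on the scaling. With the loess trend subtracted Cpox differed by 0.82, below 2-fold, and Alas1 by -0.61, past 1.5-fold. The background moved as well. With the trend subtracted, the shares past 1.5-fold became 1.79% on the higher side and 3.70% on the lower side, and those past 2-fold 0.145% and 1.03%. Genes higher with IL-3 made up 40.2% of all genes past 2-fold as deposited, 37.9% after median centring, 27.8% after quantile normalization and 12.4% with the trend subtracted. Of those past 1.5-fold they made up 56.5%, 53.1%, 42.7% and 32.6% in the same order. The mean of baseline-relative values is no expression level, so the loess trend can hold part of a difference between the conditions. Subtracting the trend can take that part away.

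**Figure D3:**
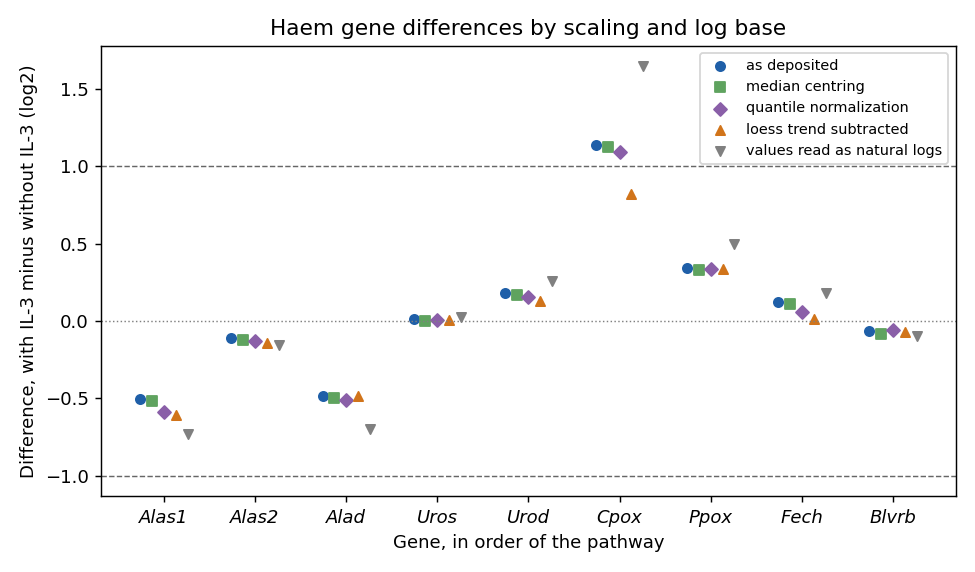
Difference of each haem gene (vertical axis, with IL-3 minus without IL-3, log2) as deposited, after 3 other scalings and with the values read as natural logs. Dashed lines mark 2-fold. The signs are the same under the 4 scalings, natural logs can change no sign, and Cpox lies between 0.82 and 1.65.

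The sequences before the start sites are shown for the gene farthest above 0 (Cpox), for both genes lower by more than the spread between probe sets (Alas1 and Alad), and for Alas2 as the erythroid counterpart of Alas1. Each is the 250 bases before the start farthest upstream in the RefSeq promoter table of GRCm38.p6, written in the direction of the gene. The windows are chr9:106247955-106248204 (minus strand), chrX:150547167-150547416 (plus strand), chr4:62520064-62520313 (minus strand) and chr16:58669958-58670207 (plus strand). The array values carry no coordinates. Capitals mark letters of an E-box (CACGTG, bound by MYC, MAX and USF proteins), a GATA motif (AGATAA or TGATAA) or a GC-box (GGGCGG, the SP1 motif), read on either strand.
Alas1: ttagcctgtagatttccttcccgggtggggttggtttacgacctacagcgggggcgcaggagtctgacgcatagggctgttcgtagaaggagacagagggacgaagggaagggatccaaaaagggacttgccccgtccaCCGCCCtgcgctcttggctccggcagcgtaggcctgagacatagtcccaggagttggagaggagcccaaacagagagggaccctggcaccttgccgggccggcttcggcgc
Alas2: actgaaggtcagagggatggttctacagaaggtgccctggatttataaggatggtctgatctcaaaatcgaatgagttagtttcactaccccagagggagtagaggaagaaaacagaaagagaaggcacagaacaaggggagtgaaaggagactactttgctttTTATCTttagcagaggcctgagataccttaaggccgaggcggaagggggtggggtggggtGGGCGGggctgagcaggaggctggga
Alad: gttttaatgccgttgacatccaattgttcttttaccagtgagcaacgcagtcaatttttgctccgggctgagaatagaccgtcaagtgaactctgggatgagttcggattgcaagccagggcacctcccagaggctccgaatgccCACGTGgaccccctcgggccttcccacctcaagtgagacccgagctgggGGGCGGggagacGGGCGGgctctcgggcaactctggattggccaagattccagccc
Cpox: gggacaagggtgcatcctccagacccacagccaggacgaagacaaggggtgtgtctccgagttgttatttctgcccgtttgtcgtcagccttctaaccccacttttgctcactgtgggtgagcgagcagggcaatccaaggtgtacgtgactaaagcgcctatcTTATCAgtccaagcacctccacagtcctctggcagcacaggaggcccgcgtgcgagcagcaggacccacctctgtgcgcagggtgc

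The Cpox window held 1 GATA motif, read on the opposite strand, and neither an E-box nor a GC-box. The Alas2 window held a GATA motif on the same strand as that of Cpox, also beginning 86 bases before the start, and 1 GC-box. The Alad window held 1 E-box, 105 bases before the start, and 2 GC-boxes, and the Alas1 window held 1 GC-box alone. The windows of 8 of the 9 genes were searched, and Fech was left out. Among these an E-box was found in 3 (Alad, Uros and Urod), a GATA motif in 2 (Alas2 and Cpox) and a GC-box in 6 (all but Cpox and Ppox). Over the windows of all 27025 genes in the table the shares were 6.04%, 16.9% and 33.0%. The NRF1 motif (GCGCATGCG), the antioxidant response element of NRF2, BACH1 and MAF proteins (TGACNNNGC) and the cAMP response element (TGACGTCA) were searched as well on both strands and were in 0 of the 8 windows, against 1.48%, 10.1% and 1.60% of all windows. The motifs do not overlap one another in the windows shown. Matches describe these letters only. Of the E-box genes, Alad was lower with IL-3, Urod was higher by 0.18 and Uros was nearly equal. Of the GATA genes, Cpox was higher, and Alas2 lay within the spread between probe sets. The part of these motifs in the differences was not tested.

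Related genes were followed in 7 lists, 6 on haem and iron and 1 of erythroid transcription factors, of whose 89 symbols 81 were measured. Past 1.5-fold on the higher side were 7 of the 81 (8.64%, against 3.52% of all genes), and on the lower side 3 (3.70%, against 2.71%). The median over the 81 was 0.01, against 0.04 over all genes. Past 2-fold were 3 on the higher side (3.70%, against 0.441% of all genes) and 0 on the lower side. These 3 became 2 after median centring, 1 after quantile normalization and 0 with the loess trend subtracted. Past 1.5-fold were 3 genes in each direction with that trend subtracted. Without the erythroid factors, 6 of 72 genes passed 1.5-fold on the higher side and 2 on the lower side. Globins and erythroid markers were kept as a list of their own and are not among these counts. The lists were chosen with earlier results of these data known. Nothing is therefore read from their counts against the shares of all genes.

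Of 3 further genes of haem breakdown 1 passed 1.5-fold. Hmox1, the inducible haem oxygenase that opens the ring, was at 0.83 with IL-3 and 0.18 without, 1.58-fold higher. The constitutive oxygenase gene Hmox2 differed by 0.13, within the spread between probe sets, the biliverdin reductase gene Blvra by 0.17 and Blvrb by -0.07. Hmox1 differed by 0.56, just under 1.5-fold, with the loess trend subtracted.

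Among iron genes, 2 of 15 passed 1.5-fold, both higher with IL-3 and both concerned with uptake. Slc11a2, which encodes the iron transporter DMT1, was at 1.03 with IL-3 and 0.02 without, 2.01-fold higher. It was below 2-fold under each of the 3 other scalings, at 0.99, 0.92 and 0.91. Tfrc, the transferrin receptor gene, was at 1.06 with IL-3 and 0.44 without, 1.53-fold higher. Ncoa4, the cargo receptor for breakdown of ferritin, lay in the other direction at 0.00 with IL-3 and 0.54 without, a difference of -0.54, and its other probe set gave -0.52. The ferritin genes Fth1 and Ftl1 differed by -0.20 and -0.30, although both have many processed copies that may share signal. Tfr2, the other transferrin receptor gene, differed by -0.35, so that the uptake genes did not share a direction. With quantile normalization Tfrc was below 1.5-fold at 0.51 and Ncoa4 past it at -0.59, and with the loess trend subtracted Tfrc was at 0.41.

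The transport list, which holds carriers of haem, its precursors and iron, together with Clpx and Pgrmc1, whose products act on haem synthesis enzymes, had 0 of 15 genes past 1.5-fold in either direction, with a median of -0.01. Slc25a39, a mitochondrial carrier linked to haem synthesis that imports glutathione, was highest at 0.57, just short of 1.5-fold, with 0.99 with IL-3 and 0.42 without. Abcb10, an inner-membrane transporter needed for haem synthesis in red cells, was lowest at -0.42. The glycine carrier gene Slc25a38 differed by -0.24, close to the -0.30 of Slc25a37, which encodes mitoferrin 1, whereas Slc25a28, which encodes mitoferrin 2, differed by 0.33. The mitoferrins bring iron to ferrochelatase, and the form known from red cells was the lower of the pair.

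In the iron-sulphur cluster list 1 of 12 genes passed 1.5-fold. Bola3, a late assembly factor for clusters of mitochondrial enzymes, was at 1.21 with IL-3 and 0.12 without, 2.13-fold higher, and Hscb, the co-chaperone of the pathway, was lowest at -0.48. The list had a median of 0.00. Genes for haem A, cytochromes and haem-using enzymes had a median of 0.21, with 10 of 14 above 0 and 2 past 1.5-fold. Of all genes, 59.8% lay above 0. Cyc1, the cytochrome c1 gene, was at 1.503 with IL-3 and 0.45 without, 2.08-fold higher. Cycs, the cytochrome c gene, was 1.63-fold higher in the probe set used, but its 3 probe sets ranged from 0.12 to 0.70, and processed copies of this gene are common. Hccs, which attaches haem to cytochrome c, differed by 0.40, and the haem A synthesis genes Cox10 and Cox15 by 0.43 and 0.15. In the other direction were 4 genes of the list, namely Cyba at -0.27, Cat at -0.19, Cyb5a at -0.10 and Cybb at -0.05. With the loess trend subtracted this list had a median of 0.09, Cyc1 differed by 0.74, Cycs by 0.52, Hccs by 0.06, Cox10 by 0.42 and Cox15 by 0.03. Bola3 differed by 0.93 and was then also below 2-fold, and Cyc1 was below it after quantile normalization as well, at 0.98.

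In the list of haem sensors and ALAS regulators 2 of 13 genes passed 1.5-fold, both lower with IL-3, and the median was -0.14. Bach1, a repressor that haem releases from DNA, was at -0.47 with IL-3 and 0.48 without, 1.93-fold lower. Mafk, which encodes its small MAF partner, was at 0.00 with IL-3 and 0.69 without, 1.60-fold lower, and Mafg differed by -0.32. Nfe2l2, which encodes NRF2, a rival of BACH1 for the same sites, differed by -0.41. Eif2ak1, the gene of the haem-regulated kinase HRI, differed by 0.04, and the Alas1 co-activator gene Ppargc1a by -0.04. Nrf1 was the highest of the list at 0.33. Bach1 and Mafk stayed past 1.5-fold under all 3 other scalings. Hmox1, a known target that BACH1 represses, differed in the direction opposite to Bach1. A link between these differences was not tested.

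**Figure D4:**
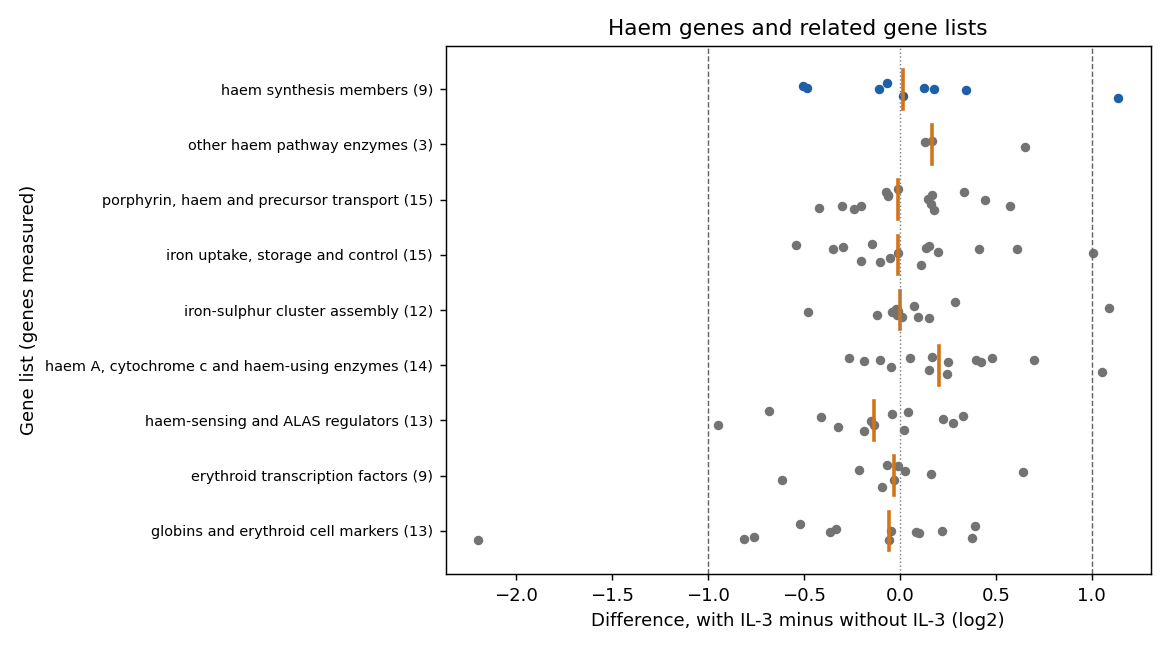
Difference of each gene (horizontal axis, with IL-3 minus without IL-3, log2) in the haem genes (blue) and in 8 lists, 7 of related genes and 1 of globins and erythroid markers (grey), with the number measured in brackets. Orange bars are list medians and dashed lines mark 2-fold. The haem genes have a median near 0 (0.02) with Cpox to the right of the 2-fold line, and the globin Hbb-y lies at -2.20.

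Red cell genes were compared because haem synthesis is strongest in that lineage. Of 9 erythroid transcription factor genes 1 passed 1.5-fold in each direction. Lmo2, an adaptor of the TAL1 complex, was 1.56-fold higher (0.97 with IL-3, 0.33 without), and Nfe2, a globin gene activator, was 1.53-fold lower (0.39 and 1.01). Lmo2 was below 1.5-fold with quantile normalization and with the loess trend subtracted, at 0.55 and 0.49. Gata1 differed by 0.16, Klf1 by -0.01 and Tal1 by -0.03. Globins and erythroid markers had 3 of 13 measured genes past 1.5-fold on the lower side and 0 on the higher side (2.71% and 3.52% of all genes), with a median of -0.06. The embryonic globin gene Hbb-y was at -0.25 with IL-3 and 1.95 without, 4.60-fold lower, and Hbb-bh1 and Hba-x, also embryonic, differed by -0.76 and -0.52. Globin genes are alike in sequence, so their probe sets may share signal. Tspo2, another erythroid marker of this list, was 1.75-fold lower. Rhag and Rhd, of the Rh complex, differed by 0.38 and 0.39 in the other direction, and by 0.07 and 0.38 with the loess trend subtracted. Alas2, the erythroid member of the pathway, differed by -0.11, within the spread between probe sets. The part of red cell genes in the differences of Alas1, Alad and Cpox was not tested.

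Some markers of other blood cells were lower in the same comparison. Past 1.5-fold on the lower side were 4 of 10 mast cell and basophil markers, 4 of 10 eosinophil and neutrophil markers and 1 of 7 macrophage markers, down to -2.87 for Ngp, against 2.71% of all genes. On the higher side there were 0 in each list, against 3.52%. Of 10 measured B-lineage markers 0 passed 1.5-fold in either direction, and they ranged from -0.35 to 0.23. Since a baseline was taken off each probe set, neither the summed level of a list nor the presence of a marker could be read, so the identity of the cells could not be checked on these values. In bulk RNA, fewer cells of a type and less RNA per cell cannot be told apart. The part of these markers in the differences of the haem genes was not tested.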

How the data were processed

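RNA was isolated with a miRNeasy kit, made into biotin-labelled sense-strand cDNA and hybridised to Affymetrix Gene 1.0 ST arrays, per the labels' protocols. The deposited table holds 1 value of the authors for each of 28815 probe sets and 2 arrays, taken as log2 after subtraction of a per-probe-set baseline, since the values centre on 0 (column medians -0.03 with IL-3 and -0.05 without). Background correction, normalization, log base, baseline and direction are not stated in the labels or the file; higher values were taken to mean more RNA. If the logs are natural, true folds are larger than those printed.

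The platform annotation gave 1 gene symbol for 21780 probe sets, several for 1605 and none for 5430, and only the first kind was used. No filter was applied. The difference is with IL-3 minus without IL-3, counted past 1.5-fold and 2-fold. All 9 haem genes matched the RefSeq gene table by identifier. All steps ran in Python 3.11.15 with pandas 2.3.3 and statsmodels 0.14.6 (loess span 0.3). The scalings and the SD between probe sets were tested on simulated data with as many genes raised as lowered and no trend against the mean. How the scalings treat an imbalance or a trend was therefore not tested. All probe sets of a changed gene were shifted alike there, so the choice of probe set was not tested either. The motif search, the list counts and the other alternatives were not run on simulated data. Alternatives were median centring, quantile normalization, a subtracted loess trend, the mean of all probe sets of a gene, natural logs and a filter at each array's median. All haem genes are named; of each related list, the genes past 1.5-fold and otherwise the farthest in each direction are named, with further genes chosen after their values were seen. The haem genes and the lists were chosen with earlier results of these data known.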

Additional observations from a re-analysis of the deposited data

How the results depend on the processing

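With 1 array per group, no array could be left out. Of the 6 alternatives, median centring, quantile normalization and the filter at each array's median moved none of the counts of haem genes past 1.5-fold or 2-fold. That filter left 7 of the 9 genes, without Alas2 and Alad. It changes no value, and on baseline-relative values it is no filter on expression level, so its unchanged counts lend no support. With the loess trend subtracted, 0 haem genes were at least 2-fold higher, 1 (Alas1) was at least 1.5-fold lower, and 3 genes of the related lists in place of 7 were at least 1.5-fold higher. With the values read as natural logs, 2 haem genes (Alas1 at -0.73 and Alad at -0.70) were at least 1.5-fold lower, and Cpox differed by 1.65. All genes past 1.5-fold numbered 701 higher and 540 lower as deposited, 357 and 738 with the loess trend subtracted, and 1475 and 1080 as natural logs. All genes past 2-fold numbered 88 higher and 131 lower as deposited, 29 and 205 with the loess trend subtracted, 419 and 375 as natural logs, and 73 and 48 under the filter. The signs of the 9 differences were kept under the 3 other scalings; the other 3 alternatives cannot change a sign here, and the mean of probe sets cannot change a value, since each haem gene has 1 probe set. No paired analysis was possible because each group has 1 array.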
